A study of Mus musculus with 19 samples.

Results

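Hspa8 encodes HSC70, the constitutive cytosolic member of the HSP70 chaperone family. It was described here on the rows of the array table whose platform gene symbols include Hspa8, which were 3 probe sets of 8751. All 3, numbered 17548379, 17548744 and 17434475, carry Hspa8 as their 1 symbol. Levels were measured in forebrain, as log2 expression values of 1 number per probe set and array, on Affymetrix Mouse Gene 2.0 ST arrays. The 19 arrays fell into 4 groups: 5 of sleep-deprived EphA4 knockout mice, 4 of undisturbed knockout controls, 6 of sleep-deprived wild-type littermates and 4 of undisturbed wild-type controls. EphA4 is a receptor tyrosine kinase that binds ephrins on neighbouring cells. All mice had the strain label Mixed BL6/10 and lived under a daily cycle with 12 h light and 12 h dark, and sleep deprivation lasted 6 h. The labels give neither the knockout allele nor age or sex. They name separate samples but not separate animals, and each p-value here therefore rests on the spread among arrays, which may be technical.

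HSC70 binds short hydrophobic stretches of unfolded proteins in a cycle driven by ATP. J-domain proteins start the hydrolysis of ATP and deliver clients, nucleotide exchange factors release ADP, and some clients pass on to HSP90 or to the chaperonin. Unlike the heat-inducible HSP70s, Hspa8 is transcribed in unstressed cells, and in neurons HSC70 strips clathrin from endocytic vesicles, keeps synaptic vesicle proteins folded and selects proteins for lysosomal breakdown in chaperone-mediated autophagy. In bulk forebrain RNA, fewer cells of a type and less RNA per cell cannot be told apart.

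Array medians ran from 5.90 to 6.07 and correlations between arrays from 0.981 to 0.993. Of the 8751 probe sets, 1308 carried 1 symbol and stood for 1121 genes, and the description of the series warns that its tables are incomplete. No row was named Epha4, so the genotype labels could not be checked by its level. Of 7 marker lists for the cell types that forebrain could hold, 1 had a gene under its own symbol, so no marker of neurons, astrocytes, microglia, endothelium or choroid plexus could be set beside the Hspa8 values. The number of arrays limits the precision.

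Hspa8 had its highest levels after sleep deprivation, in both genotypes, but no comparison passed the test across all probe sets. On probe set 17548379, the row with the highest mean of the 3 and the one used below unless another is named, the arrays of sleep-deprived knockout mice had log2 values of 10.32, 10.38, 10.31, 10.53 and 10.38 for replicates 1 to 5. The knockout controls had 10.18, 10.08, 10.12 and 10.17 for replicates 1 to 4. Each of the 5 sleep-deprived knockout arrays lay above each of the 4 knockout controls, as was found for 3.09% of all rows. The gap between the groups was wider than the whole range of the controls (0.10). How many other rows had so wide a gap was not counted.

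The 6 arrays of sleep-deprived wild-type mice ranged from 10.19 to 10.52 with a median of 10.31, and the wild-type controls had 10.07, 10.20, 10.13 and 10.27 for replicates 1 to 4. The wild-type groups overlapped. Replicates 3, 4 and 5 of the sleep-deprived wild-type arrays, at 10.35, 10.52 and 10.38, lay above every wild-type control. The other 3, at 10.26, 10.19 and 10.19, lay within the range of the controls. Complete separation with the sleep-deprived arrays on top was found in the wild type for 0.891% of all rows.

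**Figure D1:**
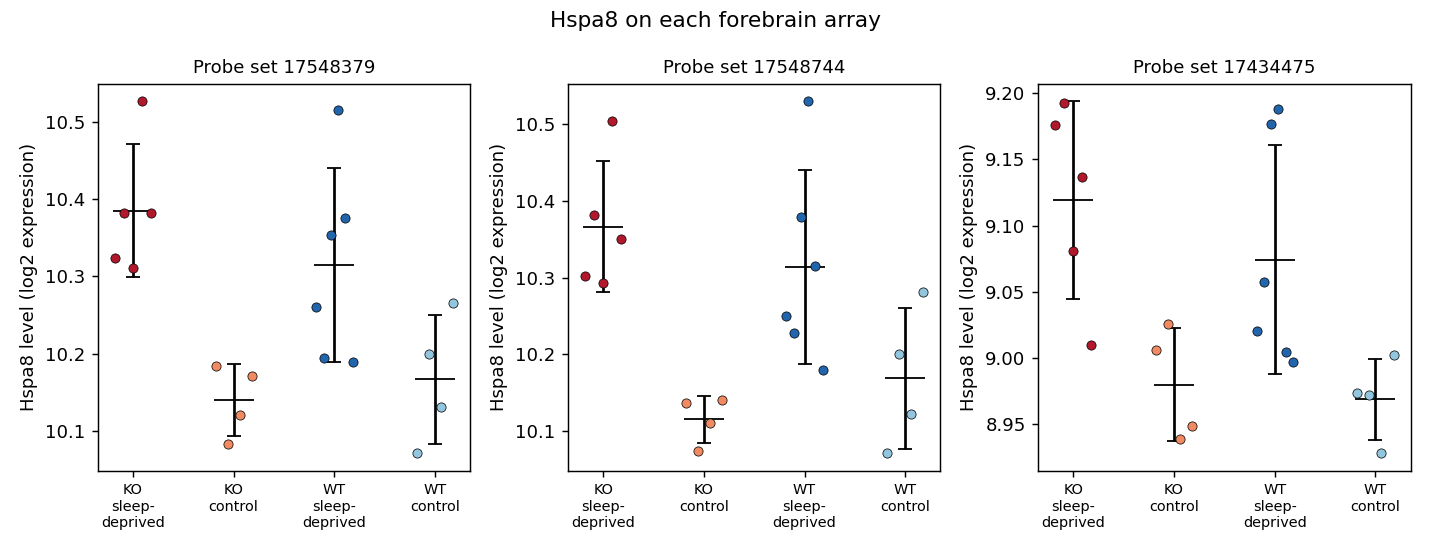
Log2 expression of Hspa8 on each array, with 1 panel per probe set and its own vertical axis; points are arrays, long horizontal lines are group means and bars are SD over 5 KO sleep-deprived, 4 KO control, 6 WT sleep-deprived and 4 WT control arrays. On probe sets 17548379 and 17548744 the 5 KO sleep-deprived arrays lie above the 4 KO controls, while 3 of the 6 WT sleep-deprived arrays lie within the range of the WT controls.

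By mean, the 4 groups had the order KO sleep-deprived, WT sleep-deprived, WT control and KO control. The mean was 10.39 ± 0.09 (SD, n = 5) in sleep-deprived knockouts and 10.14 ± 0.05 (SD, n = 4) in knockout controls. It was 10.31 ± 0.13 (SD, n = 6) in sleep-deprived wild types and 10.17 ± 0.08 (SD, n = 4) in wild-type controls. No neighbouring pair in that order differed past the threshold in limma's moderated test (adjusted p = 0.684, 0.633 and 0.970 from the top of the order down).

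Averaged over the genotypes, the sleep-deprived level was higher than the control level by 0.20 ± 0.05 on the log2 scale (SE, 95% interval 0.09 to 0.30), which is 1.15-fold (1.06 to 1.23). With p-values adjusted over all 8751 probe sets by the Benjamini-Hochberg method, limma gave an adjusted p = 0.153, over the threshold of 0.05. By that test 23 probe sets were called in this comparison (0.263%, and 14 to 29 probe sets with 1 array left out). With identical rows counted once, 16 were called. The p of Hspa8 was the 64th smallest of all rows and the 14th among the 1121 genes with a symbol of their own. The median change over all rows was 0.015. A two-sided exact permutation test of this 1 gene, which exchanged sleep deprivation labels within each genotype, gave p = 0.000945 over 26460 arrangements (0.00661 adjusted over the 7 comparisons made). Neither that exact p nor the permutation p-values below take account of the choice of Hspa8 out of all rows. Hspa8 was chosen with earlier results of these data known.

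In the knockout alone, the sleep-deprived arrays were higher by 0.25 ± 0.07 (SE, 95% interval 0.09 to 0.40), which is 1.19-fold (1.06 to 1.32), with an adjusted p = 0.175 in limma's test. Under quantile normalization the knockout difference was 0.16, below the wild-type difference of 0.20 under the same scaling. Called rows made up 0.263% of all rows here too, and their number of 23 became 6 without KO sleep-deprived replicate 3 and 33 without WT sleep-deprived replicate 3. The exact permutation p was 0.00794, the smallest that 126 arrangements can give (0.0278 adjusted over the 7 comparisons). Complete separation of the groups with the sleep-deprived arrays on top was found for 270 of the 8751 rows, a share of 3.09%.

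In the wild type, the difference was 0.15 ± 0.07 (SE, 95% interval -0.00124 to 0.30), or 1.11-fold (0.999 to 1.23), with an adjusted p = 0.633 in limma's test. The exact permutation p was 0.0810 over 210 arrangements (0.189 adjusted over the 7 comparisons). In limma's test of sleep deprivation in the wild type 0 rows were called (0%), while 683 of the 8751 rows had an unadjusted p under 0.05. Chance alone gives that for about 1 row in 20. The interval holds both 0 and the size measured in the knockout.

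The interaction tested whether genotype altered the size of the Hspa8 difference with sleep deprivation. The knockout change exceeded the wild-type change by 0.10 ± 0.10 (SE, 95% interval -0.12 to 0.31; adjusted p = 0.738 in limma's test), and its sign turned (-0.04) when the values were quantile normalized. A permutation test of the same quantity, which exchanged genotype labels within each condition, gave p = 0.237 over 32340 arrangements (0.415 adjusted over the 7 comparisons). Its arrangements assume no genotype effect in either condition, so it is not an exact test of the interaction alone. In limma's test 0.0686% of rows were called for the interaction. Leaving out 1 array moved the interaction of Hspa8 between 0.06, without KO sleep-deprived replicate 4, and 0.14, without WT sleep-deprived replicate 4. The 6 rows called became 41 without WT sleep-deprived replicate 3. The separation of groups in the knockout and their overlap in the wild type were thus not shown to differ.

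The comparison of genotypes asked whether loss of EphA4 went with another Hspa8 level. After sleep deprivation the knockout mean was higher than the wild-type mean by 0.07 ± 0.07 (SE, 95% interval -0.07 to 0.21; limma adjusted p = 0.684; exact permutation p = 0.323 over 462 arrangements). It ran from 0.04 without KO sleep-deprived replicate 4 to 0.11 without WT sleep-deprived replicate 4. In limma's test of the same groups 1.68% of rows were called, which is 147 rows, against 67 without KO sleep-deprived replicate 1 and 298 without WT sleep-deprived replicate 3. In controls the knockout minus wild-type difference was -0.03 ± 0.08 (SE, 95% interval -0.19 to 0.14; limma adjusted p = 0.970; exact permutation p = 0.600 over 70 arrangements). There 0% of rows were called, and 476 of the 8751 rows had an unadjusted p under 0.05, which chance alone gives for about 1 row in 20. Averaged over the conditions the Hspa8 difference was 0.02 ± 0.05 (SE, 95% interval -0.09 to 0.13; limma adjusted p = 0.940), with 0.0114% of rows called. It ran from 0.00412 to 0.0419 on leaving out the same replicates 4. The sign of each of these differences turned under quantile normalization, median centring or another Hspa8 probe set. The averaged interval leaves room for a knockout level between 0.942 and 1.09 times that of the wild type.

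**Figure D2:**
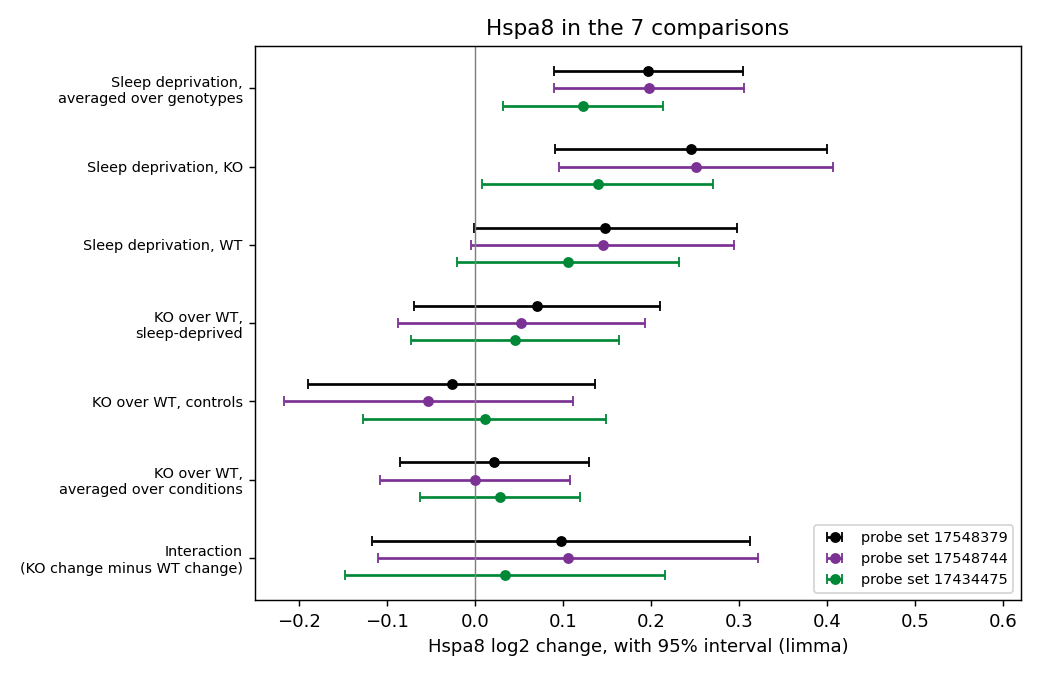
Log2 differences of Hspa8 in the 7 comparisons on each of its 3 probe sets; points are limma estimates and bars their 95% intervals, with the grey line at 0. For sleep deprivation averaged over genotypes and in KO the intervals of all 3 probe sets lie above 0 before adjustment. For sleep deprivation in WT, the comparisons of KO over WT and the interaction they span 0.

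Probe set 17548744 followed 17548379 closely. Its sleep-deprived knockout arrays had 10.30, 10.38, 10.29, 10.50 and 10.35, and its knockout controls 10.14, 10.07, 10.11 and 10.14. In the wild type the 6 sleep-deprived arrays ranged from 10.18 to 10.53 with a median of 10.28, and the controls had 10.07, 10.20, 10.12 and 10.28. As on 17548379, the knockout groups did not overlap (a separation found for 3.09% of all rows). In the wild type 3 of the 6 sleep-deprived arrays lay above every control. The averaged difference was 0.20 (adjusted p = 0.153 in limma's test), with 0.25 in the knockout and 0.15 in the wild type. On the 19 arrays the values of both probe sets correlated at r = 0.985 (rho = 0.989), and at 0.972 after each group's mean was subtracted. They differed by at most 0.060 on any array and were identical on 1, so these rows are not independent measurements.

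Probe set 17434475 had a lower estimate of the difference, though not beyond the spread between arrays. Its sleep-deprived knockout arrays had 9.18, 9.19, 9.08, 9.14 and 9.01, against 9.01, 9.03, 8.94 and 8.95 in the knockout controls. Here 4 of the 5 sleep-deprived knockout arrays lay above every knockout control, and replicate 5 lay among them. The sleep-deprived wild-type arrays ranged from 9.00 to 9.19 with a median of 9.04, against 8.97, 8.97, 8.93 and 9.00 in the wild-type controls, and 5 of the 6 lay above every control. The averaged difference was 0.12 ± 0.04 (SE), 1.09-fold (adjusted p = 0.427 in limma's test; exact permutation p = 0.00159 over 26460 arrangements). It was 0.14 in the knockout and 0.11 in the wild type, with an interaction of 0.03 (adjusted p = 0.908).

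Probe set 17434475 correlated with 17548379 at r = 0.740 over the 19 arrays (rho = 0.707) and at 0.439 within groups. The averaged difference on 17548379 exceeded that on 17434475 by 0.07, and an exact permutation test of this gap gave p = 0.0925 (0.0648 for 17548744 against 17434475), which does not separate the probe sets. All 3 rows had an unadjusted p under 0.05 in the higher direction for sleep deprivation averaged over genotypes, as did 5.10% of all rows.

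The position of each probe set is not given in the sources used here, and Hspa8 is a gene with processed copies elsewhere in genomes. Most probe set numbers follow the genome: of 1120 adjacent pairs of named rows with lower numbers, 1024 (91.4%) lay on 1 chromosome by the mouse gene table. Among the highest numbers, where 17548379 and 17548744 fall, this held for 39 of 106 pairs (36.8%), so the number does not place them. Probe set 17434475 falls among the lower numbers. Of the 10 named rows nearest to it by number, 0 lay on the chromosome of Hspa8. These 10 rows lay on 2 chromosomes. Which locus each row reads was not tested, and signal from a near-identical copy cannot be told apart from that of Hspa8.

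Left out in turn, none of the 19 arrays changed the direction of the averaged difference on 17548379, which ran from 0.18 without WT sleep-deprived replicate 4 to 0.21 without WT control replicate 4. The adjusted p in limma's test stayed above the threshold each time, from 0.130 to 0.315. Replicate 4 had the highest Hspa8 value in both sleep-deprived groups, at 10.53 in the knockout and 10.52 in the wild type. Without it the knockout difference was 0.21 and the wild-type difference 0.11.

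**Figure D3:**
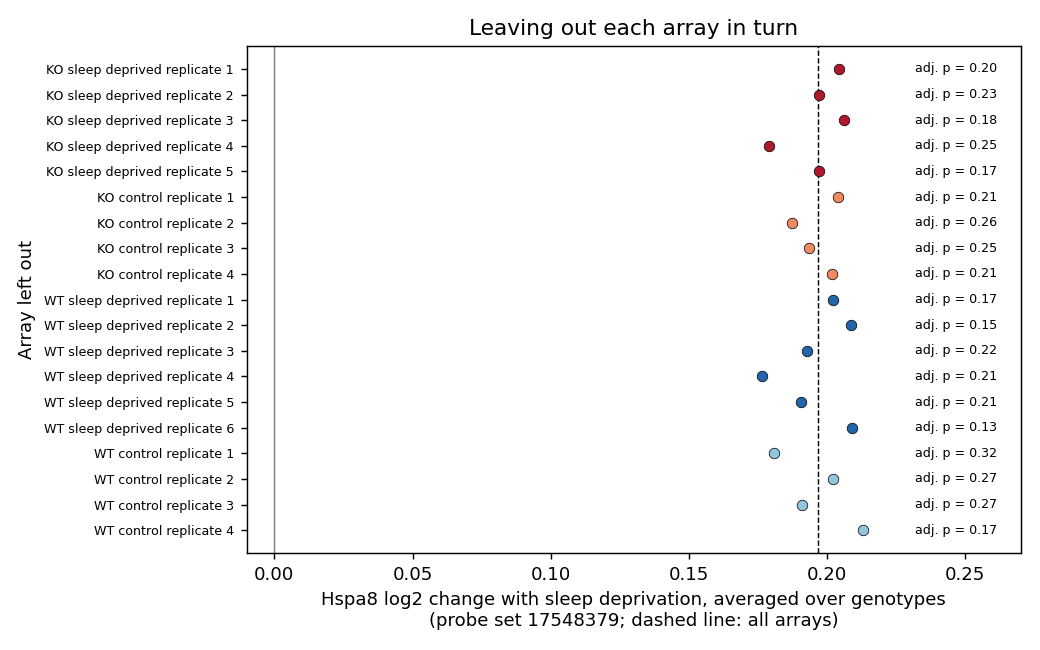
Log2 difference of Hspa8 (probe set 17548379) with sleep deprivation, averaged over genotypes, with each array left out in turn; the dashed line marks the value with all 19 arrays and the text at the right gives the limma adjusted p. All 19 values lie between 0.18 and 0.21, and all adjusted p-values lie above 0.05.

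Partners of HSC70 were counted from 13 lists of folding factors, of which 6 had a gene under its own symbol. These held Hspa8 and 7 other genes. The HSP70 list had Hspa8 alone, so the inducible HSP70s and the ER and mitochondrial members were not analysed here, nor were the small heat shock proteins, the clathrin-uncoating partners and the small nucleolar RNAs of the Hspa8 introns. Of the 7 partner genes, 1 rose and 0 fell with sleep deprivation averaged over genotypes, against 0.263% of all rows called. Their median change was 0.05 (range -0.06 to 0.42), with 5 of 7 positive, beside 0.015 and 58.1% positive over all rows.

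Among the proteins that act directly before HSC70, Dnajb14, a J-domain protein of the ER membrane, had a difference of 0.05 ± 0.15 (SE, adjusted p = 0.968 in limma's test). Among those that act with HSP90, Ptges3, the co-chaperone p23, had a difference of 0.13 ± 0.09 (SE, adjusted p = 0.789). Its mean was 5.57 ± 0.33 (SD, n = 5) in sleep-deprived knockouts, 5.23 ± 0.20 (SD, n = 4) in knockout controls, 5.36 ± 0.12 (SD, n = 6) in sleep-deprived wild types and 5.45 ± 0.12 (SD, n = 4) in wild-type controls. The sleep-deprived minus control difference was thus 0.34 in the knockout and -0.09 in the wild type, with an interaction of 0.43 ± 0.18 (SE, adjusted p = 0.381).

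Fkbp5, an HSP90 co-chaperone that lowers the hormone affinity of the glucocorticoid receptor, was the partner that rose, by 0.42 ± 0.07 (SE, adjusted p = 0.00651 in limma's test). Gpd1, a glycerol-3-phosphate dehydrogenase also induced by glucocorticoids, had a difference of 0.19 ± 0.05 (SE, adjusted p = 0.200) in limma's test. It was 0.10 in the knockout and 0.27 in the wild type. The list of glucocorticoid-responsive genes had only these 2 genes under their own symbols, and a hormone response was not tested.

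Cct6a, a subunit of the cytosolic chaperonin, had a difference of 0.02 ± 0.06 (SE, adjusted p = 0.967). Ppil6, a cyclophilin-like protein of the prolyl isomerase list, had 0.23 ± 0.07 (SE, adjusted p = 0.327). The Ppil6 mean was 8.01 ± 0.18 (SD, n = 5) in sleep-deprived knockouts, against 7.70 ± 0.16 (SD, n = 4) in knockout controls, and 7.88 ± 0.17 (SD, n = 6) in sleep-deprived wild types, against 7.74 ± 0.04 (SD, n = 4) in wild-type controls. The remaining members were Fkbp1a-ps3, annotated as a pseudogene, at -0.06 ± 0.07 (SE, adjusted p = 0.898), and Eef1a1, a translation elongation factor on the list for chaperone-mediated autophagy, at -0.02 ± 0.04 (SE, adjusted p = 0.958). Neither passed the test.

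In the knockout, 1 of the 7 partners was called (Fkbp5, 0.49, adjusted p = 0.0439 in limma's test), against 0.263% of all rows. That call was lost with median centring (adjusted p = 0.0680), with the replicate number as a block (0.105) and on leaving out any of 11 of the 19 arrays. These were KO sleep-deprived replicates 1, 2 and 3, all 4 KO controls, WT sleep-deprived replicate 6 and WT control replicates 1, 3 and 4, and over all 19 omissions the adjusted p ran from 0.0135 to 0.121. The median knockout difference of the 7 was 0.12 with 6 positive, beside 0.012 and 53.4% positive over all rows. In the wild type 0 of the 7 were called, against 0% of all rows, and their median was -0.04 with 2 positive, beside 0.017 and 55.7% over all rows. For the interaction 0 of the 7 were called, against 0.0686% of all rows, and their median was 0.14 with 7 positive, beside -0.003 and 49.5% over all rows. Over rows with 1 symbol the median was 0.022 in the knockout, 0.002 in the wild type and 0.020 for the interaction. The group means of Dnajb14 (4.47 to 4.64), Fkbp1a-ps3 (4.15 to 4.36) and Ptges3 (5.23 to 5.57) lay below the lowest array median of 5.90. The signs of these genes therefore rest on low signal. All of these values rest on the same arrays. A further 14 probe sets carried a symbol of these lists together with other symbols, and 1 of them was called higher and 0 lower in the averaged comparison, against 0.263% of all rows called. Their median change was 0.03, beside 0.015 over all rows.

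**Figure D4:**
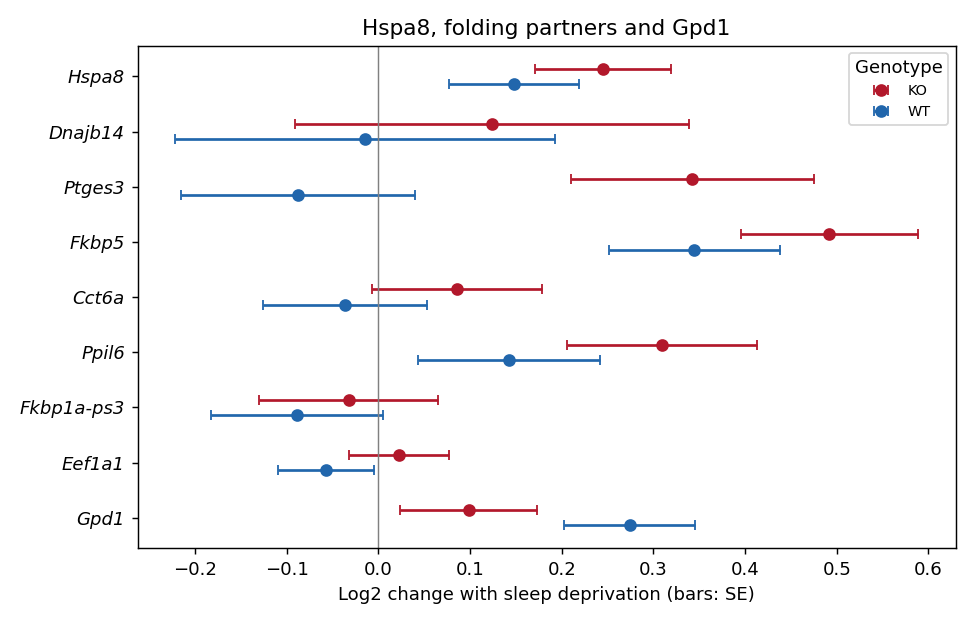
Log2 difference between sleep-deprived and control arrays for Hspa8 (probe set 17548379), the 7 partner genes and Gpd1, in KO (red) and WT (blue); points are limma estimates and bars are SE. Of the genes plotted, Fkbp5 has the largest difference in each genotype, and Ptges3, Dnajb14, Cct6a and Eef1a1 have a positive difference in KO and a negative one in WT.

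Likeness to Hspa8 from array to array was measured by Pearson's r of the log2 values over the 19 arrays, among 767 genes with 1 symbol after predicted, microRNA and small nucleolar genes were passed over. These values share arrays, scaling and the 4 groups, and they are given as a description. Over all 767 genes the median r was 0.04, with 5% below -0.37 and 5% above 0.46. The 5 highest were Xirp2, an actin-binding repeat protein known from striated muscle (r = 0.682), Pramel16, of the PRAME-like family (0.681), Wdr78, an axonemal dynein intermediate chain (0.673), Tpt1, the translationally controlled tumour protein (0.662), and Elk1, a transcription factor phosphorylated by MAP kinases (0.661).

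Part of this likeness lay between the groups. After subtraction of the group means, r was 0.372 for Xirp2, 0.355 for Pramel16, 0.276 for Wdr78 and 0.431 for Elk1, and 0.668 for Tpt1. Wdr78 and Elk1 were, like Hspa8, higher after sleep deprivation without passing the test, by 0.26 (adjusted p = 0.0599 in limma's test) and by 0.16 (adjusted p = 0.294) averaged over genotypes. Xirp2 had 0.17 (adjusted p = 0.366 in limma's test) and Pramel16 0.52 (adjusted p = 0.152). The group means of Pramel16 (4.44 to 5.21) lay below the lowest array median of 5.90, so its r and its difference rest on low signal. Tpt1 had a mean of 8.92 ± 0.06 (SD, n = 5) in sleep-deprived knockouts, 8.78 ± 0.16 (SD, n = 4) in knockout controls, 8.85 ± 0.17 (SD, n = 6) in sleep-deprived wild types and 8.84 ± 0.04 (SD, n = 4) in wild-type controls, a difference of 0.07 (adjusted p = 0.830). The likeness of Tpt1 thus lay among arrays of the same group. Over all arrays, r with Hspa8 probe set 17434475 was only 0.354 for Tpt1 and 0.380 for Elk1. For Xirp2, Pramel16 and Wdr78 it was 0.756, 0.764 and 0.630. The high r of Tpt1 and Elk1 was thus not seen on that probe set, and the gap was not tested.

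**Figure D5:**
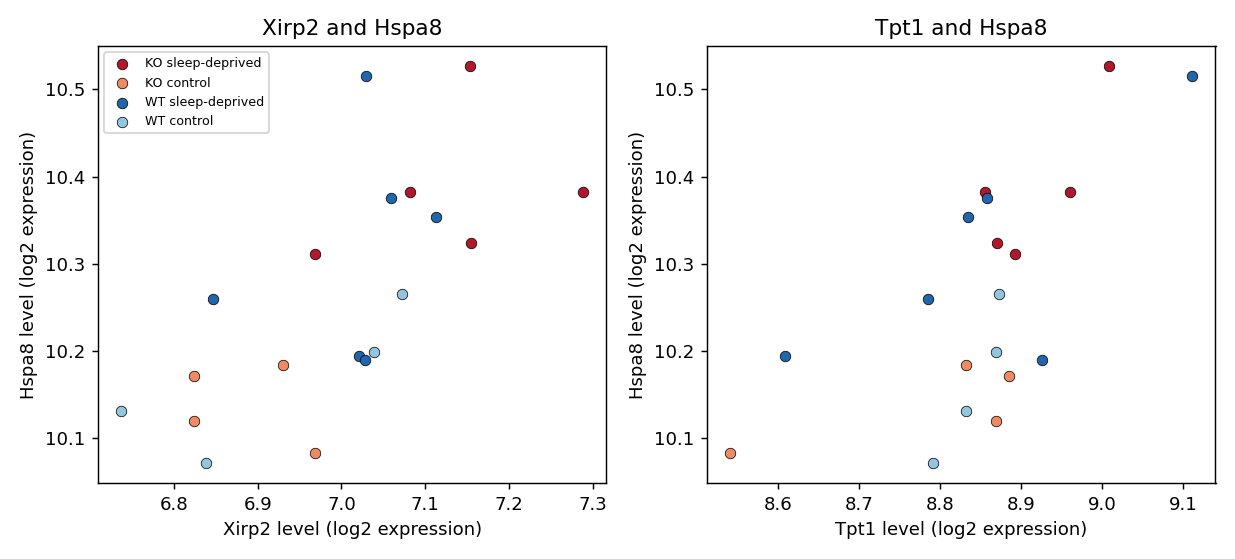
Log2 level of Hspa8 (probe set 17548379) against that of Xirp2 (left) and Tpt1 (right) on the 19 arrays, coloured by group. Over all arrays r is 0.682 for Xirp2 and 0.662 for Tpt1, and within groups 0.372 and 0.668.

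The next highest r within groups were those of Rpa3, the smallest subunit of replication protein A (0.633), and Rsph3a, a radial spoke protein (0.628), whose r over the ungrouped arrays was 0.141. The lowest r over the 19 arrays belonged to BC023105 (-0.660), Mid1ip1, a regulator of fatty acid synthesis (-0.659), and Dcun1d1, which promotes the neddylation of cullins (-0.650). BC023105 and Mid1ip1 had lower means after sleep deprivation, by differences of -0.18 (adjusted p = 0.403) and -0.13 (adjusted p = 0.366) in limma's test. Their choice by a low r favours this direction. The group means of BC023105 (5.61 to 5.90) lay near the lowest array median of 5.90. Dcun1d1 had a difference of -0.04 (adjusted p = 0.928 in limma's test) and ran against Hspa8 within groups (r = -0.775), while its rho over the 19 arrays was -0.459. With probe set 17434475, r over the 19 arrays was -0.395 for BC023105, -0.721 for Mid1ip1 and -0.378 for Dcun1d1.

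Signal from blood was read from 5 probe sets that carry haemoglobin symbols. Their mean level per array ranged from 7.80 to 8.09 (median 7.98) in sleep-deprived knockouts, from 7.49 to 8.26 (median 7.76) in knockout controls, from 7.55 to 8.26 (median 7.86) in sleep-deprived wild types and from 7.68 to 8.12 (median 7.74) in wild-type controls. The ranges overlapped in both genotypes, and the averaged changes of the 5 ran from -0.08 to 0.22 (adjusted p from 0.860 to 0.987 in limma's test). Their correlations with Hspa8 over the 19 arrays ran from -0.170 to 0.256. Mir219a-2, an oligodendrocyte microRNA precursor and the 1 cell marker with its own symbol, fell by 0.36 averaged over genotypes (adjusted p = 0.0131 in limma's test), and its part in the Hspa8 result was not tested.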

How the data were processed

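Per the labels' protocols, total RNA from forebrain was prepared with a kit for lipid-rich tissue and carried a biotin label on the arrays. The authors deposited log2 expression values, 1 per probe set and array, in a series table. RMA, oligo and limma are named in the submitters' processing notes, without versions or roles, and the genome build is not given in the sources used here. Values ran from 2.18 to 14.2, 346 rows repeated an earlier row, and 0 columns belonged to another series.

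Arrays were grouped by genotype and treatment as labelled. Each of the 8751 rows was fitted with limma 3.58.1 in R 4.3.3 as 4 group means over 19 arrays, without covariates, and 7 comparisons were adjusted over all rows by the Benjamini-Hochberg method at 0.05. Hspa8 alone was also compared by two-sided permutation over all arrangements of arrays. Sleep deprivation labels were exchanged within each genotype, and genotype labels within each condition, also for the interaction. Symbols came from the platform annotation, which can be old, and rows with several symbols named no gene; RefSeq's mouse gene table gave chromosomes. The text names Hspa8 on every row, the 5 genes with the highest and 3 with the lowest r, the 3 highest within groups, and list members (all of them up to 6 in a list). Gpd1 and Mir219a-2 are members of the glucocorticoid and oligodendrocyte lists. For a gene with several rows the highest mean was used. Hspa8 and the lists were chosen with earlier results of these data known.

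Scripts were tested on simulated data. Same-numbered arrays did not deviate together: of 25 pairs, 0 correlated above 0.1 (range -0.22 to 0.0783), so the numbers were not taken as pairs. Alternatives covered prior variance, array weights, row filters, scaling, arrays fitted, the replicate number and each array left out; the other 2 Hspa8 rows and the mean of all 3 were added after seeing the data. Plots used matplotlib 3.10.9 in Python 3.11.15.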

Additional observations from a re-analysis of the deposited data

Results flagged for a closer look

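Of 88 groups of log2 values over the genes named, 7 held an array whose gap to the nearest, divided by the group's range, was past Dixon's 95% limit, which is stricter for smaller groups. Chance gives about 1 in 20. None of the 12 Hspa8 groups was past it, though KO sleep-deprived replicate 4 on probe set 17548379 came to 0.669 of the range, under the limit for 5 arrays. Among the genes most like Hspa8, Xirp2 was at 6.85 on WT sleep-deprived replicate 1 (nearest 7.02) and Tpt1 at 8.54 on KO control replicate 2 (nearest 8.83). On that same array Hspa8 had its lowest value among the knockout controls. Dcun1d1 was at 6.12 on KO control replicate 1, where the other 3 shared 6.04, and at 5.71 on WT sleep-deprived replicate 4 (nearest 6.03), the array with the highest Hspa8 value of its group. Ptges3 was at 5.63 on WT control replicate 2, where the other 3 shared 5.39. Fkbp1a-ps3 was at 3.95 on KO sleep-deprived replicate 4 (nearest 4.18). Mir219a-2 was at 7.21 on WT sleep-deprived replicate 2 (nearest 7.61).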

How the results depend on the processing

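In 31 or 32 alternatives per comparison, none of the 7 Hspa8 comparisons passed the threshold. The sleep deprivation differences kept their direction in all of them, with adjusted p from 0.0529 to 0.427 averaged over genotypes, 0.0978 to 0.395 in the knockout and 0.510 to 0.866 in the wild type. The lowest averaged p came with a trend on mean level, and only rows with 1 symbol gave 0.0567. Under quantile normalization the knockout difference was 0.16 and the wild-type difference 0.20, knockout against wild type was -0.00517 after sleep deprivation and 0.0362 in controls, and the interaction was -0.0414. Knockout against wild type averaged over conditions was -0.00834 with median centring and -0.000553 on probe set 17548744, and in controls it was 0.0110 on 17434475. Leaving out each array gave -0.0587 to 0.00589 for knockout against wild type in controls, positive without WT control replicate 4. With the replicate block the Hspa8 difference was 0.21 averaged over genotypes (adjusted p = 0.251), 0.24 in the knockout and 0.17 in the wild type, and 0 in place of 1 folding genes were called (Fkbp5, adjusted p = 0.0555). Of the 5 genes most like Hspa8, 3 remained with Spearman's rho, 3 with median centring, 2 with quantile normalization, 3 on 17548744 and 2 on 17434475. The 23 rows called in the averaged comparison became 39 with the trend, 37 with array weights, 14 with median centring or without WT control replicate 1 and 9 with the replicate block. There were 39 calls without the dimmest 40% of rows and 8 among the 1308 rows with 1 symbol. With identical rows counted once there were 16, and 17 in the knockout. Each of these counts has a smaller base than the 8751 rows of the main fit. Over the same settings other than left-out arrays, the 23 rows called in the knockout ranged from 7 to 43, the 147 called between genotypes after sleep deprivation from 28 to 185 and the 6 called for the interaction from 0 to 9. The lowest count of each range came from the 1308 rows with 1 symbol. The causes were not tested.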
